A study of Mus musculus with 6 samples.

Results

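The 10 mRNAs described here encode proteins of the acentriolar spindle pole and of the microtubules that attach to it: *Pcnt*, *Cep192*, *Tacc3*, *Ckap5*, *Numa1*, *Clasp1*, *Clasp2*, *Nde1*, *Cep63* and *Spice1*. They were taken by symbol from a table of 25965 rows (25899 distinct symbols), and all 10 were found. Values come from 6 libraries of oocytes from aged female mice (AF), 3 of non-polysomal (NP) and 3 of polysomal (P) RNA, and the question is how each mRNA was divided between the fractions while the meiotic spindle was forming. According to the sample labels the mice were CD1 of 58 weeks, with no genotype or allele named, and were primed with 5 IU of pregnant mare serum gonadotropin 46 h before collection; the methods of the study name the ICR strain and another age. In all 6 libraries the oocytes had been denuded, released from IBMX for 180 min so that the nuclear envelope broke down (NEBD), and exposed to 0.1 mg/ml cycloheximide, which holds ribosomes on mRNA, for 10 min. Each sample was 200 oocytes pooled from an unstated number of animals, and its lysate was spread on a 10 to 50% sucrose gradient. NP joins the light fractions (free RNA and single ribosomes) and P the heavy ones. Libraries of young females were not analysed here. No source used here states that the replicates came from separate collections of mice, so p-values measure the spread between these libraries only.

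Mouse oocytes lose their centrioles during growth. Their spindle poles are built instead from many microtubule-organising centres that hold pericentrin and CEP192, are drawn together after NEBD, and are focused by NUMA with the motor dynein. Fully grown oocytes do not transcribe, so any protein newly made at this step comes from stored mRNAs. Loading of those mRNAs with ribosomes is one of the ways this synthesis is set. Protein already present was not measured here.

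One well known control of stored mRNAs is the cytoplasmic polyadenylation element, which CPEB1 binds near the polyadenylation hexamer. The transcript strand of the last 100 bases before the last hexamer (AATAAA or ATTAAA) of the 3′ UTR was searched for TTTTAT and TTTTAAT, of which a position can match only 1. The letters were found in 2 of the 10 mRNAs, *Pcnt* and *Ckap5*, against 1373 of 8909 tested genes with an annotated transcript (15.4%). Both stretches are printed in the sense of the mRNA from GRCm38, with the element in capitals, because they are the only members in which the element was found.
*Pcnt*, chr10:76351284-76351313, minus strand: tcagtttattctTTTTATtggcaaaacaaa
*Ckap5*, chr2:91620625-91620654, plus strand: aatttaagagacTTTTATaaataaagtttg
From the first base of the element to the first base of the hexamer there are 16 bases in *Pcnt* and 7 in *Ckap5*. *Nde1*, whose P to NP ratio was the lowest of the 9 tested, and *Numa1*, the other pole focusing member, have a hexamer (capitals) without the element in that window.
*Nde1*, chr16:14192894-14192923, plus strand: ttttaaccaagtAATAAAataattgaacaa
*Numa1*, chr7:102014923-102014952, plus strand: ttattacttgtaAATAAAgtctatttttct
No hexamer was found in the chosen transcripts of *Tacc3* and *Clasp2*, whose annotated 3′ UTRs are 154 and 55 bases long. A match of letters is a description and not a mapped site.

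Levels are given as FPKM, fragments scaled by exon length and by mapped reads, which are per length and can be compared between genes. Low FPKM move in steps, and with a step taken as 1 read they gave depths of 1237796, 18096652 and 12130992 reads in NP replicates 1, 2 and 3, and 163818, 1141528 and 1549317 in P replicates 1, 2 and 3, a span of 110-fold. For a gene with 2 kb of exon, 3 reads were worth between 0.0829 and 1.21 FPKM in NP and between 0.968 and 9.16 FPKM in P, the last in P replicate 1. Oocyte mRNAs were abundant in both fractions, with 12 markers summing to between 11959 and 15234 FPKM in NP and between 5067 and 15379 in P. Of 12 granulosa and cumulus markers 8 were listed at 0 in every library, among them *Foxl2*, *Amh* and *Fshr*, while *Cyp19a1* reached 104 FPKM in NP replicate 3. Of the 7 blood markers found by symbol 6 were listed at 0 in every library.

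No member passed the test of P against NP when the replicate number was left out of the model, and 1, *Nde1*, passed when it was used as a block (below an adjusted p of 0.1, as did 668 genes in all). Without the block, with limma on log2(FPKM + 1) and Benjamini-Hochberg adjustment over 10578 genes, 0 of the 9 members tested were below an adjusted p of 0.1, against 1.82% of all genes (192, of which 190 or 1.8% were lower and 2 or 0.0189% higher in P), and 1 member (*Nde1*) was below an unadjusted p of 0.05, against 15.8%. Each sample gave an NP and a P library. Comparing libraries of the same number, P was above NP in all 3 for 1 of the 9 tested members (*Tacc3*), beside 2.09% of all genes, and below it in all 3 for 3 (*Cep192*, *Clasp1* and *Nde1*), beside 38.6%. *Cep63* had a mean of 1 FPKM or less in both fractions and was not tested. Without the block, the adjusted p-values of the members lay between 0.166 and 0.909 and the standard errors of their log2 ratios between 0.80 and 1.39.

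The members' log2 ratios of P over NP had a median of -0.30, beside a median of -1.03 for all genes tested, of which 80.1% were below 0. Deposited FPKM summed over all genes to between 597261 and 633110 in NP and to between 246182 and 393876 in P. The shares of genes lower in P are on these unscaled values. Of the 9 ratios 6 were negative and 6 lay above the median of all genes. Rescaling the libraries moved the median of all genes to -0.37 (median of ratios), 0.0027 (quantiles) or -0.43 (a common FPKM sum) and turned the median of the members positive, to 0.55, 0.75 and 0.50. As distances from the all-gene median, the members' ratios were 1.92 for *Tacc3*, 1.48 for *Clasp2*, 1.44 for *Ckap5*, 0.77 for *Spice1*, 0.73 for *Pcnt*, 0.64 for *Numa1*, -0.12 for *Cep192*, -0.68 for *Clasp1* and -2.77 for *Nde1*. On that scale the median was 0.73 as deposited, 0.91, 0.75 and 0.93 after rescaling, 1.41 and 0.27 with 0.1 or 5 added to FPKM, and 0.12 without P replicate 1. It turned to -0.28 when no filter on low values was used, where the median of all genes was 0.

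**Figure D1:**
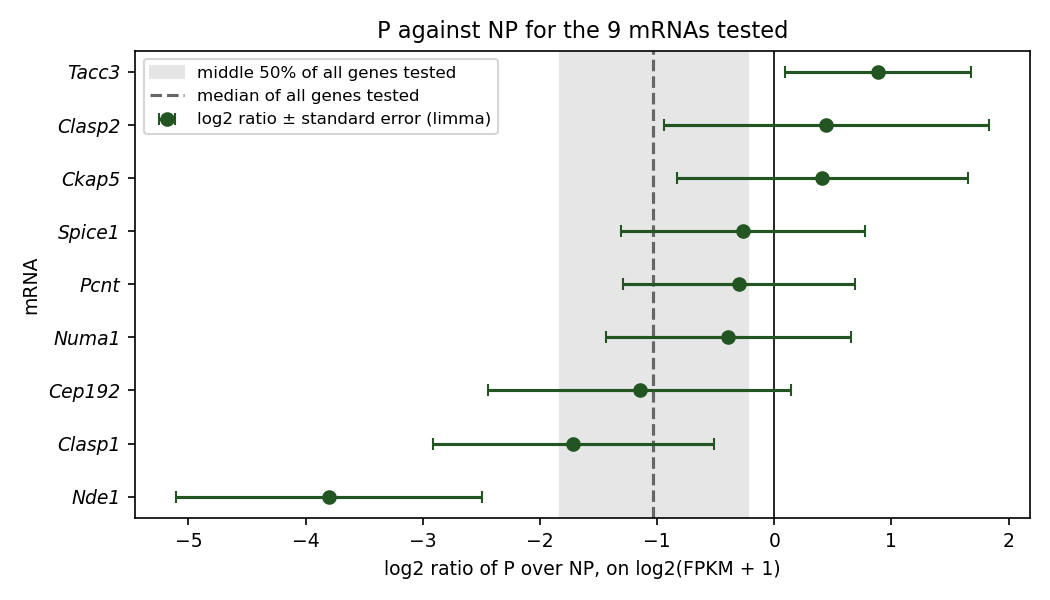
Log2 ratio of P over NP on log2(FPKM + 1) for the 9 mRNAs tested (points) with the standard error from limma (bars), the median of all genes tested (dashed line) and the range from their 25th to 75th percentile (grey). *Tacc3* is farthest to the right at 0.89 and *Nde1* farthest to the left at -3.80, and no member had an adjusted p under 0.1 in this fit without the replicate block.

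Of the scaffold proteins of the pole, pericentrin (*Pcnt*, chromosome 10, 76351254 to 76442912, minus strand, GRCm38) anchors the microtubule-nucleating complexes. *Pcnt* was at 51.5, 35.8 and 23.3 FPKM in NP replicates 1, 2 and 3 (36.9 ± 14.1, SD, n = 3) and at 35.2, 51.3 and 12.3 FPKM in P (32.9 ± 19.6). The fractions overlapped, and the log2 ratio was -0.30 with a standard error of 0.99 (limma, Benjamini-Hochberg adjusted p = 0.891), and was 0.27 without P replicate 3. The lowest P value rested on 182 recovered reads and that of P replicate 1 on 55. *Pcnt* ranked 2 or 3 among the 10 in every library.

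CEP192 (*Cep192*, chromosome 18, 67800107 to 67885168, plus strand) recruits the kinases that start nucleation at the pole. Its mRNA was at 18.6, 9.19 and 1.94 FPKM in NP (9.90 ± 8.34, SD, n = 3) and at 6.04, 6.06 and 0.0798 FPKM in P (4.06 ± 3.45). P replicate 3 held 1 recovered read of it and NP replicate 3 was the lowest of NP, and the fractions overlapped. The log2 ratio was -1.15 with a standard error of 1.29 (limma, adjusted p = 0.628 by Benjamini-Hochberg). It moved to -1.90 without NP replicate 3 and to -0.25 without P replicate 3.

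Among the mRNAs for microtubule growth, *Tacc3* (chromosome 5, 33658128 to 33678995, plus strand) had the highest level of the 10 in 5 of the 6 libraries. TACC3 binds the microtubule polymerase CKAP5 and clathrin on spindle microtubules. It was at 119.2, 78.1 and 60.9 FPKM in NP (86.1 ± 29.95, SD, n = 3) and at 168, 83.4 and 258 FPKM in P (170 ± 87.5). P replicate 2 lay inside the NP range and the other P libraries above it, and each P library was above the NP library of its number. The log2 ratio was 0.89 with a standard error of 0.80 (limma, Benjamini-Hochberg adjusted p = 0.549), or 1.92 relative to the median of all genes, and was higher than that of 94.3% of the genes tested. Within its library *Tacc3* exceeded between 94.0% and 96.0% of genes in NP and between 97.9% and 98.9% in P. It made up 44.5%, 40.5% and 29.3% of the summed FPKM of the 10 in NP and 60.2%, 47.1% and 88.0% in P. It shares 289 bases of exon (8.14% of its exon length) with *Tmem129* on the opposite strand, and *Tmem129* was at most 4.90 FPKM in any library.

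**Figure D2:**
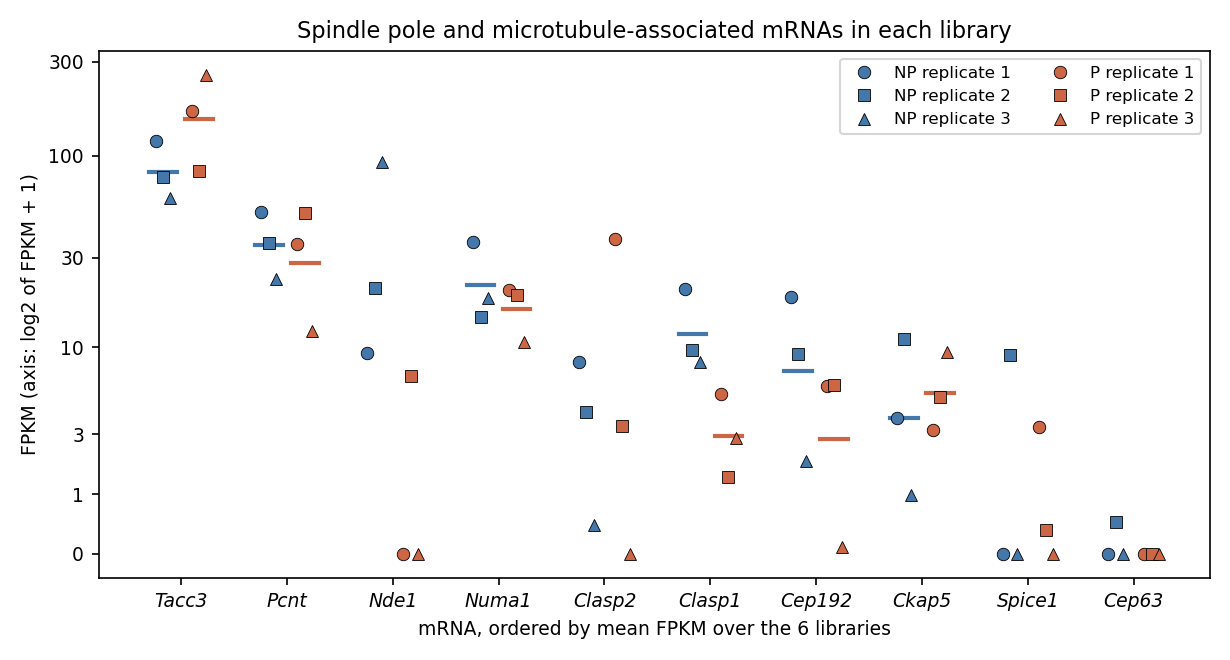
FPKM of the 10 mRNAs in each library (axis on log2 of FPKM + 1), with NP in blue, P in orange, a marker shape for each replicate number and a bar at the mean of log2(FPKM + 1) for mRNAs above 0 in all 6 libraries. *Tacc3* lies between 60.9 and 258 FPKM in all libraries, and *Nde1* is the one mRNA with a value over 90 in NP and 0 in P replicates 1 and 3.

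CKAP5 (*Ckap5*, chromosome 2, 91526762 to 91620664, plus strand) adds tubulin at growing ends. The mRNA was at 3.84, 11.03 and 0.976 FPKM in NP (5.28 ± 5.18, SD, n = 3) and at 3.23, 5.18 and 9.35 FPKM in P (5.92 ± 3.13). The value in P replicate 1 is 5 recovered reads, with an exact 95% Poisson interval of 1.047 to 7.53 FPKM for counting error alone. The fractions overlapped, and the log2 ratio was 0.41 with a standard error of 1.24 (limma, adjusted p = 0.879 by Benjamini-Hochberg). It was -0.24 without NP replicate 3, and P was below NP in 2 of the 3 libraries of the same number. *Tacc3* was between 7.08 and 62.5 times the level of *Ckap5*, its partner, in NP and between 16.1 and 52.2 times in P.

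The CLASP proteins stabilise microtubule plus ends at kinetochores and poles. The NP libraries held *Clasp1* (chromosome 1, 118389058 to 118609432, plus strand) at 20.5, 9.62 and 8.22 FPKM (12.8 ± 6.73, SD, n = 3) and the P libraries at 5.37, 1.43 and 2.84 FPKM (3.21 ± 1.996). Every P value was below every NP value, which held for 2 of the 9 members tested (*Clasp1* and *Nde1*) and for 23.2% of all genes. The reverse held for 0 members and for 0.633% of all genes. The P values rested on 7, 13 and 35 recovered reads at the shortest exon length that made all 6 values whole, and multiples of that length did so too. At the shortest length the exact Poisson interval of P replicate 1, for counting error alone, reached 11.1 FPKM. That limit lay above the levels of NP replicates 2 and 3, so the separation of *Clasp1* from these libraries was not beyond counting error. *Clasp1* had a log2 ratio of -1.72 with a standard error of 1.20 (limma, Benjamini-Hochberg adjusted p = 0.464), or -0.68 from the all-gene median.

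The level of *Clasp2* (chromosome 9, 113812586 to 113919697, plus strand) in NP replicates 1, 2 and 3 was 8.24, 4.17 and 0.406 FPKM, and in P replicates 1 and 2 it was 37.5 and 3.39 FPKM. It was listed at 0 in P replicate 3, where 3 reads would be 0.340 FPKM. The value of 37.5 FPKM was 35 recovered reads, again at the shortest of the lengths that made the values whole, and P replicate 1 was above all NP libraries and the other P libraries were not. The log2 ratio was 0.44 with a standard error of 1.39 (limma, adjusted p = 0.885 by Benjamini-Hochberg). Its sign turned without P replicate 1 (-0.96), without NP replicate 3 (-0.32) and with 0.1 added to FPKM (-0.15). The ratio of *Clasp1* to *Clasp2* was 2.49, 2.31 and 20.3 in NP, and 0.143 and 0.423 in P replicates 1 and 2. In P replicate 3 *Clasp1* was at 2.84 FPKM and *Clasp2* was listed at 0, so the order of the genes there was that of NP. The longest identical stretch between the transcripts compared was 29 bases, and reads inside it could count for either gene.

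NUMA (*Numa1*, chromosome 7, 101969843 to 102014959, plus strand) gathers microtubule minus ends at the pole. *Numa1* was at 36.4, 14.7 and 18.5 FPKM in NP (23.2 ± 11.6, SD, n = 3) and at 20.4, 19.2 and 10.7 FPKM in P (16.8 ± 5.30). The fractions overlapped, with NP replicate 1 the highest and P replicate 3 the lowest. For *Numa1* the log2 ratio was -0.39 with a standard error of 1.046 (limma, Benjamini-Hochberg adjusted p = 0.860).

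*Nde1* (chromosome 16, 14163275 to 14192928, plus strand) encodes a dynein regulator that works with LIS1. It was at 9.33, 20.8 and 93.4 FPKM in NP, or 37, 1204 and 3630 recovered reads, and at 6.83 FPKM (25 reads) in P replicate 2. It was listed at 0 in P replicates 1 and 3, where 3 reads would be 5.71 and 0.604 FPKM, so a level under 5.71 FPKM could have been missed in P replicate 1. Every P value was below every NP value. For counting error alone, the exact Poisson interval was 4.42 to 10.1 FPKM in P replicate 2 and 6.57 to 12.9 FPKM in NP replicate 1. In P replicate 1 it reached 7.03 FPKM, so the separation of these P libraries from NP replicate 1 was not beyond counting error. The log2 ratio was -3.80 with a standard error of 1.31 (limma, Benjamini-Hochberg adjusted p = 0.166), below that of all but 2.07% of the genes tested. With the replicate number as a block the limma adjusted p was 0.0699 (Benjamini-Hochberg). NP replicate 3 was 10.0 times NP replicate 1. In the same libraries the granulosa marker *Cyp19a1* had levels of 7.15, 22.5 and 104 FPKM (NP) and of 15.4, 0 and 0 (P). Summed over the 12 granulosa and cumulus markers the range was 7.15 to 104 FPKM in NP and 0.211 to 15.4 in P, which was nearly all *Cyp19a1*: the other 11 summed to 0, 0.710 and 0.112 FPKM in NP and to 0, 0.211 and 0.364 in P. The part of granulosa RNA in the *Nde1* values was not tested, and fewer cells of a type and less RNA per cell cannot be told apart in bulk libraries. *Nde1* shares 77 bases of exon with *Marf1* on the opposite strand (listed as *4921513D23Rik*), for which NP held 84.3, 199 and 6.54 FPKM and P held 23.6, 75.02 and 7.90. Whether reads were assigned by strand is not stated.

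Its paralog *Ndel1*, which has the same partners, had NP levels of 46.2, 27.3 and 3.04 FPKM and P levels of 52.5, 25.6 and 16.3 (log2 ratio 0.73, standard error 1.12, limma with Benjamini-Hochberg adjusted p = 0.741). The ratio of *Nde1* to *Ndel1* was 0.202, 0.759 and 30.7 in NP, and 0, 0.267 and 0 in P. These and the other ratios within a library, 7 in all, were chosen after the values had been seen and are given as a description.

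**Figure D3:**
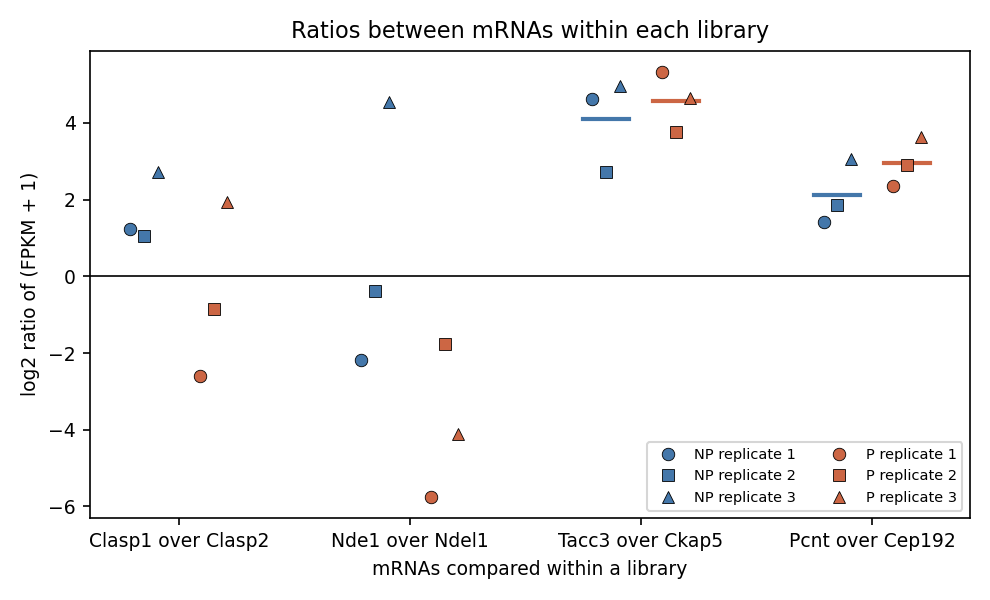
Log2 ratio of (FPKM + 1) between 2 mRNAs of the same library, for 4 of the 7 ratios, with NP in blue, P in orange, a marker shape for each replicate number and, where no library is at 0, a bar at the mean. *Nde1* over *Ndel1* spans from above 4 in NP replicate 3 to below -5 in P replicate 1, and the fractions overlap for *Tacc3* over *Ckap5*.

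Of the proteins named for centrioles, *Spice1* (chromosome 16, 44347121 to 44388497, plus strand) encodes a spindle and centriole protein and was seen in few libraries. It was at 9.08 FPKM in NP replicate 2 (890 recovered reads) and listed at 0 in NP replicates 1 and 3, where 3 reads would be 0.448 and 0.0457 FPKM. In P it was at 3.38 and 0.323 FPKM in replicates 1 and 2, which are 3 and 2 reads, and listed at 0 in replicate 3. NP replicates 2 and 3, the deepest libraries, thus lay at the upper and lower end. For *Spice1* the log2 ratio was -0.27 with a standard error of 1.04 (limma, adjusted p = 0.909 by Benjamini-Hochberg), and was 0.85 without NP replicate 2 and 0.16 without P replicate 3.

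*Cep63* (chromosome 9, 102586578 to 102626534, minus strand), whose protein recruits CEP152 to centrioles, was at 0.445 FPKM in NP replicate 2 and listed at 0 in the other 5 libraries. With a single value its exon length could not be fitted. At the annotated 9598 bases 3 reads in P would be 1.91, 0.274 and 0.202 FPKM, and more at a shorter length, so the limit in P replicate 1 lay above the level of NP replicate 2 and the other limits, at that length, below it. *Cep63* shares 239 bases of exon with *Anapc13* on the opposite strand. *Anapc13* was at 1.77 FPKM in NP replicate 2 and likewise listed at 0 in the other 5 libraries. The part of *Anapc13* reads in the *Cep63* value was not tested.

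Detection differed between members and fractions. In NP 8 of the 10 were above 0 in all 3 libraries, beside 79.7% of the genes tested, and in P 6 were, beside 44.0%. In order of their mean over the 6 libraries the members were *Tacc3*, *Pcnt*, *Nde1*, *Numa1*, *Clasp2*, *Clasp1*, *Cep192*, *Ckap5*, *Spice1* and *Cep63*. The order held at its upper end only in part, since *Nde1* was first in NP replicate 3 with 45.0% of the summed FPKM and at 0 in P replicates 1 and 3. *Clasp2*, *Clasp1*, *Cep192* and *Ckap5* had overlapping ranges over the 6 libraries.

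**Figure D4:**
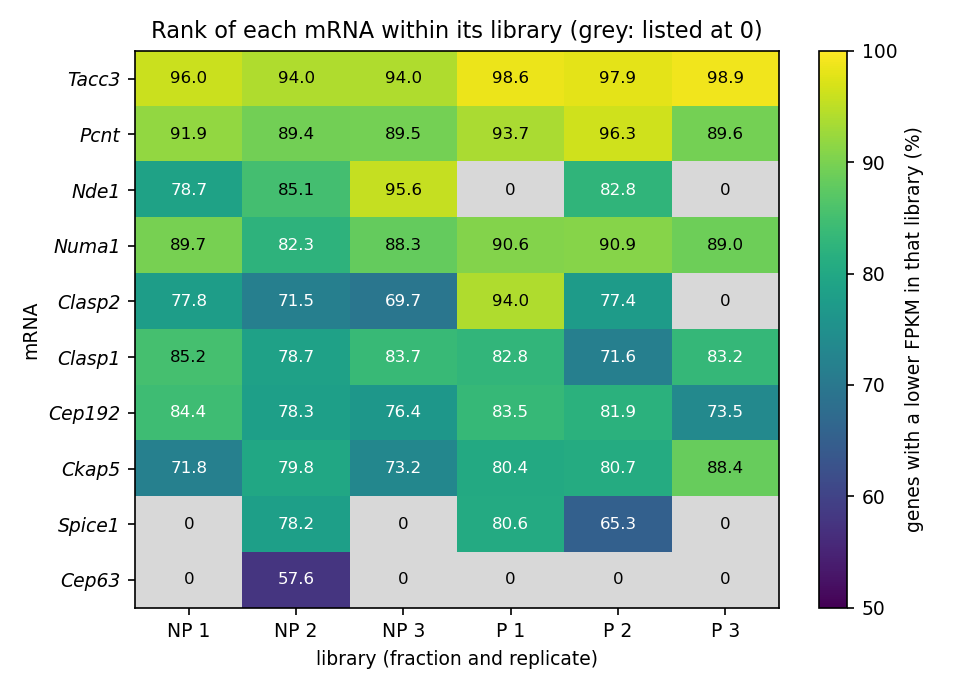
Share of genes in the same library with a lower FPKM (%), for each mRNA (rows) in each library (columns), with grey cells where the mRNA was listed at 0. *Tacc3* is at 94.0% or higher in every library, and *Cep63* has a value in NP replicate 2 alone.

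Genes of the same machinery were read from 6 lists of 72 genes, all in the table and 63 tested. Of these 2 passed the test (3.17%, beside 1.82% of all genes), both lower in P, and the median log2 ratio was -0.74. Both calls depended on the processing: *Mcrs1* passed in 6 and *Poc1a* in 5 of 16 alternatives, and neither passed under the 3 rescalings (adjusted p of 0.354 or more, limma with Benjamini-Hochberg), while both ratios stayed negative. Every P value was below every NP value in 3 of the 9 tested minus-end genes and in 1 of the 10 centriole genes, beside 23.2% of all genes. The minus-end, pole focusing and severing list held 1 of them, *Mcrs1*, which protects minus ends of spindle fibres. Its NP levels were 805, 791 and 2417 FPKM and its P levels 112, 46.2 and 375 (log2 ratio -3.20, standard error 0.74, limma with Benjamini-Hochberg adjusted p = 0.049). In that list of 11, 9 were tested, 8 ratios were negative and the median was -1.24, with *Aspm* at -1.15 and *Camsap3* at -1.18. The other was *Poc1a* of the centriole list, a centriole wall protein, with NP levels of 416, 319 and 469 FPKM and P levels of 93.0, 39.0 and 53.3 (log2 ratio -2.75, standard error 0.74, limma with Benjamini-Hochberg adjusted p = 0.0793). Of the 14 centriole genes 10 were tested and 7 were negative, with a median of -0.70, and *Cetn2* was at 0.20 and *Cep120* at -1.42.

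None of the other 4 lists held a gene that passed the limma test without the replicate block. With the block 5 of the 63 list genes tested passed (7.94%, beside 6.31% of all genes), all lower in P. They were *Mcrs1*, *Poc1a*, the severing enzyme subunit *Katna1* (Benjamini-Hochberg adjusted p = 0.0630, limma), *Dctn2* (0.0474) and *Tubgcp2* (0.0880). All 11 genes of the gamma-tubulin ring complex, which nucleates microtubules, were tested, 10 had negative log2 ratios (median -1.21), beside 80.1% of all genes, and in 6 every P value was below every NP value, beside 23.2%. The 6 include *Tubgcp3*, listed at 0 in all P libraries, and *Tubgcp6*, listed at 0 in P replicates 1 and 3. Both were at 2.54 FPKM or less in NP. In P, 3 reads at 2 kb of exon were worth between 0.968 and 9.16 FPKM, so such levels could have been missed. The same separation was seen in 1 augmin, 1 plus-end and lattice and 2 dynein and dynactin genes. The 3 most abundant genes of the gamma-tubulin ring complex were *Mzt2* (-2.21), *Tubgcp2* (-2.77) and *Tubg2* (-0.17). Of the 8 augmin genes, which branch microtubules inside the spindle, 6 were tested and 4 were negative (median -1.18), with *Haus4* at -1.51, *Haus7* at -3.15 and *Haus5* at -2.50. The 15 plus-end and lattice binding genes had 14 tested, 8 negative and a median of -0.20, and 13 lay above the median of all genes. *Prc1*, which bundles antiparallel microtubules, was at 0.98, *Cltc* at 1.34 and *Mapre2* at 0.51. The paralogs *Tacc1* and *Tacc2* were at -0.63 and -0.59. Of the 13 genes of dynein, dynactin and their adaptors all were tested and 6 were negative (median 0.09), with *Bicd2* at 0.27, *Dctn3* at -2.39 and *Dctn2* at -3.61.

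**Figure D5:**
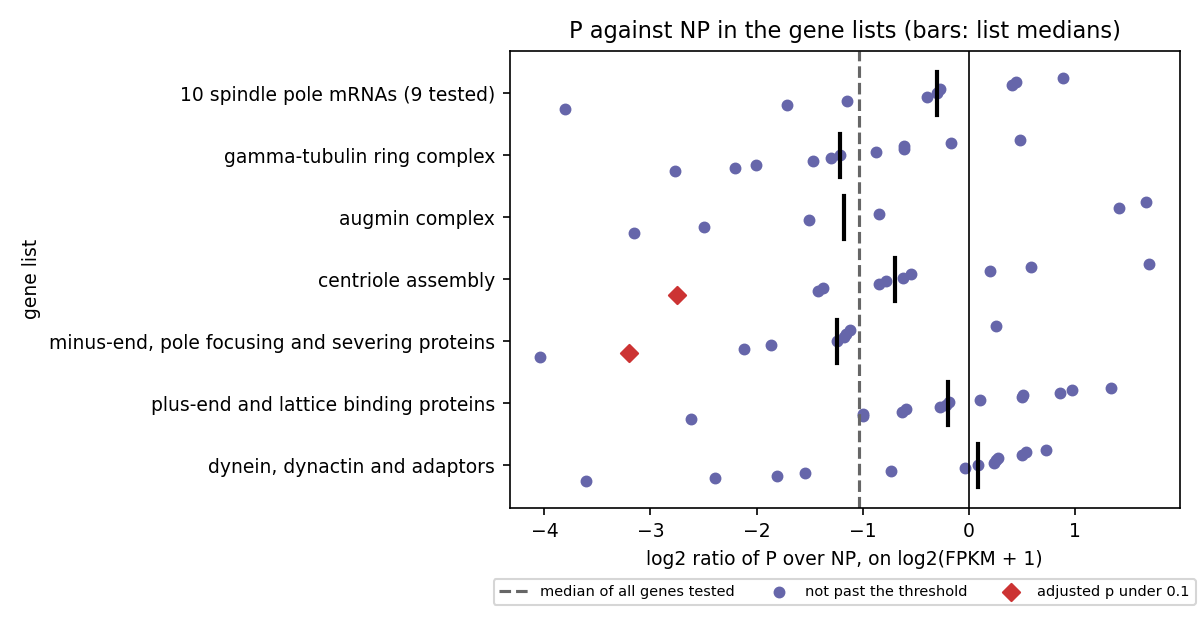
Log2 ratio of P over NP on log2(FPKM + 1) for each gene tested in the 10 spindle pole mRNAs and the 6 lists (points), with list medians (bars), the median of all genes tested (dashed line) and genes with an adjusted p under 0.1 as red diamonds. The 2 diamonds are *Poc1a* and *Mcrs1*, and the medians run from -1.24 to 0.09.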

How the data were processed

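Per the submitters' processing notes, Trim Galore 0.4.1 was used for trimming and HISAT2 2.0.5 for alignment, to the GRCm38 build. The values deposited by the authors are FPKM, which Seqmonk computed for each gene. Their RNA had been depleted of rRNA and amplified by whole transcriptome amplification with random and oligo-dT primers. Neither the annotation release nor the strand setting is given in the sources used here. The authors' fraction means, also in the table, were left out. Of 58 duplicated symbols the row with the highest mean was kept.

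The contrast of P with NP was fitted in limma 3.58.1 (R 4.3.3) to log2(FPKM + 1), letting the spread follow the level, two-sided and without the replicate number. A gene entered if its mean in at least one fraction was over 1 FPKM, with Benjamini-Hochberg adjustment over all of them and a threshold of 0.1. According to the study's methods the gradient fractions of each sample were joined into an NP and a P library, and the labels number both from 1 to 3, so a shared number was read as a shared sample. Deviations from the fraction means correlated across genes at 0.063, 0.099 and 0.116 for shared numbers and at -0.089 to 0.021 for others. The fit with the number as a block is printed where it changes the call of a member or list gene. A log2 ratio on this scale understates the change of low genes. Scripts were tested on simulated data. For limma, recovery of changed genes was required only in a simulation less noisy than the data, whose median residual SD was 1.22.

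Depth was recovered with GENCODE M21 exon lengths of the 13247 rows (51.0%) whose coordinates equal that annotation, as the depth at which most of 1500 low values per library were whole reads within 0.02. Between 85.6% and 88.7% were. Steps summed over all 22662 genes matched by symbol came to between 1.10 and 2.24 times that depth. That sum includes genes whose coordinates differ from the annotation, so their exon lengths may not apply. It is not known what a single step counts. A member's reads come from the exon length that made its values whole. Intervals (95%) and limits of 3 reads cover counting error only.

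Members, lists and tests were chosen with earlier results of these data known. All 10 members are named, with the 3 most abundant genes of each list, those past the threshold, paralogs and genes with overlapping exons. *Pcnt* shares 379 bases of exon with *1700094J05Rik* (opposite strand) and 115 with *AC141477.1* (same strand). *Ckap5* shares 93 with *Snord67* (same strand). No values were listed for these overlapping genes. *Numa1* shares 80 with *Il18bp* (opposite strand), listed at 0 in every library. Of 72 list genes 66 matched by symbol and 6 by RefSeq synonym. Motifs were searched in the GENCODE M21 transcript with the longest coding sequence. Protein sequences were not used here. Alternatives were other added constants, filters, scalings and thresholds, no trend, a replicate block and each library left out.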

Additional observations from a re-analysis of the deposited data

How the results depend on the processing

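Over 16 alternatives the 9 members gave 143 log2 ratios, of which 124 had the same direction and stayed on the same side of the threshold. *Tacc3* stayed positive (0.51 to 1.88) and *Nde1* (-6.01 to -2.31) and *Clasp1* (-2.07 to -0.57) negative in all 16. With 0.1 added to FPKM *Clasp2* was at -0.15 and *Spice1* at 0.23. Median-of-ratios rescaling gave *Pcnt* 0.66, *Numa1* 0.55 and *Spice1* 0.057, quantile normalization *Pcnt* 0.85, *Cep192* 0.065, *Numa1* 0.75 and *Spice1* 0.51, and a common FPKM sum *Pcnt* 0.61, *Numa1* 0.50 and *Spice1* 0.080. Leaving out 1 library at a time, ratios ranged from -0.91 to 0.85 for *Spice1*, from -0.24 to 1.06 for *Ckap5*, from -0.96 to 1.68 for *Clasp2*, from -0.72 to 0.27 for *Pcnt* and, with no change of sign, from -1.90 to -0.25 for *Cep192*. The members' median was -0.30, and 0.55, 0.75 and 0.50 under the 3 rescalings. It ranged from -0.91 (without P replicate 1) to 0.072 with a library left out. Its distance from the all-gene median was -0.28 without a filter, where that median was 0, and positive under the other alternatives.

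The number of all genes past the threshold was 192, but 69 with 0.1 added, 1 without a filter, 3, 4 and 7 under the 3 rescalings in the order above, 15 without a trend and 65 at an adjusted p of 0.05. It ranged from 1 (without NP replicate 3) to 331 (without P replicate 3), with 4 without NP replicate 1 and 12 without NP replicate 2. The cause was not tested. No member passed under any of these, and the count was 0 with each library left out. With the replicate number as a block 668 genes passed, and 1 member, *Nde1* (adjusted p = 0.0699, limma; 0.0699 to 0.667 over its alternatives). The block changed no other call of a member. Depth limits P replicate 1 most.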
